A study of Homo sapiens with 4 samples.

Results

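Mucin genes were followed through 4 RNA sequencing libraries of MDA-MB-231, a mesenchymal triple-negative breast cancer cell line. The 8 genes (MUC5B, MUC5AC, MUC1, MUC3A, MUC12, MUC13, MUC16 and MUC20) were taken by gene name from the 58735 genes of the deposited count table. MUC5B was selected on its reads, which were higher in Violet, the library of cells that retained Violet dye, than in any other library. Its difference in Violet is therefore a description, and where it passes a threshold used for other genes, that follows from the choice. The question put to the other 7 genes was whether they follow MUC5B.

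All cells carried a TetOn H2B-eGFP transgene, a histone tagged with green fluorescent protein that is made while doxycycline is present. Per the labels' protocols, doxycycline (5 μg/ml) had been given over 3 days, both dyes had been added, and a chase of 12 days followed, during which dividing cells dilute each label. This holds for every group, Bulk included. Claret, eGFP and Violet are the libraries of slow-cycling cells, the 1% that kept most of the respective label, and the Bulk sort had no fluorescence gate. Each group has 1 library, so no difference between groups has a replicate check, and whether the transduced line is 1 clone is not given in the sources used here.

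Mucins are glycoproteins whose long serine- and threonine-rich stretches carry dense O-linked sugar chains. The secreted gel-forming mucins polymerise into mucus and are best known from the airway, gut and salivary glands. The membrane-bound mucins span the plasma membrane, where they coat the cell surface and can take part in signalling, and several are studied in breast and ovarian carcinoma. MUC5B and MUC5AC are gel-forming mucins, and the other 6 genes code for membrane-bound mucins.

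Summed reads ranged from 15508179 to 16976909 per library, so that a count of 0 allows up to 0.177 to 0.19 CPM (reads scaled to library size). Mitochondrial genes took 5.06% to 5.48% of reads in the slow-cycling libraries and 4.18% in Bulk. The sort named in the treatment field differs from the title in every sample. Titles were used, and by the treatment field the library titled Violet is un-gated. In the library titled Bulk MKI67 and TOP2A, both markers of dividing cells, had 6778 and 14220 reads, against 689 to 995 and 2487 to 3399 elsewhere. All 6 mesenchymal markers were detected, with VIM (vimentin) at 156 to 211 FPKM, the authors' unit scaled to gene length and library size. Of 6 luminal markers CDH1, the epithelial cadherin, had 0 to 3 reads, and the summed level was 71.4 FPKM in Bulk and 158 to 192 in the slow-cycling libraries. KRT19 alone was called higher in these than in Bulk, at 152 to 185 against 64.6 FPKM. GATA3 and FOXA1 were not called, at 1.35 to 1.78 and 3.69 to 4.07 FPKM, and EPCAM, with 61 reads in eGFP and 28 in Violet, was called lower in Violet than in eGFP (log2 ratio -1.06). Of 6 markers of airway or intestinal mucous cells SCGB1A1 and SCGB3A1 had 0 reads in every library, BPIFB1 and CLCA1 had 0 to 3, and TFF3 and SPDEF were read in every library. The summed level of these 6 was 16.9 FPKM in Violet, 15.3 in Claret, 12.9 in Bulk and 11.3 in eGFP. The part of these cell-type markers in the mucin values was not tested. Blood cell markers summed to 0.0129 to 0.154 FPKM.

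MUC5B and MUC5AC are neighbouring paralogs on chromosome 11, and the sequence they share is shown first, because a read that falls within it cannot be assigned to one of them. MUC5B (ENSG00000117983) spans 1223066 to 1262172 on the plus strand and MUC5AC (ENSG00000215182) spans 1157953 to 1201138 on the same strand, in GRCh38 coordinates. In GENCODE 29 the transcript of each with the most exonic bases has 49 exons. Exon 31 is the largest in both, with 10893 bases in MUC5B and 10371 in MUC5AC. The longest runs that are identical in both and lie within 1 exon were in exon 25 and exon 4, outside that large exon. The run in exon 25 is at chr11:1237066-1237156 in MUC5B and chr11:1178585-1178675 in MUC5AC. The run in exon 4 is at chr11:1226661-1226702 and chr11:1161953-1161994, all on the plus strand.
Exon 25: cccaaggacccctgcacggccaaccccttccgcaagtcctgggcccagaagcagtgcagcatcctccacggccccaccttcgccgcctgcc
Exon 4: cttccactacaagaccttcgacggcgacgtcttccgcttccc
Of the 31-base words in MUC5AC transcripts 0.909% occur in another gene, which is MUC5B. Of those in MUC5B transcripts 3.56% occur in another gene, most of them in MUC5B-AS1, an antisense RNA with 0 reads in all 4 libraries. Use of strand in counting is not given in the sources used here, so reads of MUC5B and of its antisense RNA cannot be told apart.

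MUC5B, the main gel-forming mucin of saliva and of the lower airway, had 14741 reads in Violet, 5790 in Bulk, 5471 in Claret and 5227 in eGFP. Violet was the high library and the other 3 lay close together. After scaling, MUC5B stood at 933 CPM in Violet, 368 in Bulk, 329 in eGFP and 323 in Claret. The log2 ratio of Violet was 1.34 to Bulk, 1.53 to Claret and 1.502 to eGFP. These are the values for which the gene was chosen. They cannot tell more MUC5B-expressing cells from more MUC5B RNA per cell, as holds for every ratio between these bulk libraries. Below Violet, eGFP and Claret were not apart beyond counting error (log2 ratio 0.03, 95% exact interval -0.03 to 0.08), and Bulk was above eGFP by 0.16 (0.10 to 0.21). MUC5B took 0.0951% of all reads in Violet and 0.0322% to 0.0361% in the other libraries. By FPKM it ranked at position 654 of 19951 protein-coding genes in Violet, and at 2441 to 2514 in the others.

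**Figure D1:**
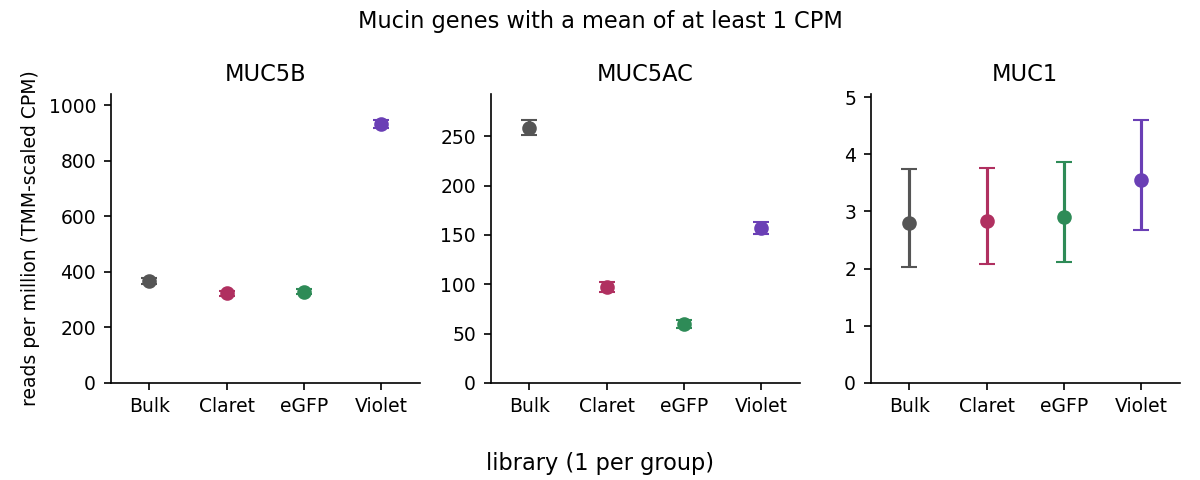
Scaled reads (CPM, linear axis from 0) of the 3 mucin genes with a mean of at least 1 CPM, 1 point per library, with 95% exact Poisson intervals that cover counting error only. MUC5B is at 933 CPM in Violet and 323 to 368 elsewhere, MUC5AC is highest in Bulk, and the MUC1 intervals overlap.

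MUC5AC, the gel-forming mucin of the stomach surface and of airway goblet cells, had another order. It had 4077 reads in Bulk, 2475 in Violet, 1648 in Claret and 944 in eGFP. Bulk was the high library, and each step of that order exceeded counting error. Relative to Bulk the log2 ratio of MUC5AC was -2.12 for eGFP (95% exact interval -2.23 to -2.02), -1.41 for Claret (-1.496 to -1.33) and -0.72 for Violet (-0.80 to -0.65). A gene was called where an exact binomial test on its reads passed after adjustment over all genes tested and the change was at least 2-fold (log2 of 1). MUC5AC was called lower than Bulk in Claret, as were 6.67% of all genes, and in eGFP, as were 7.6%. In Violet, where 7.01% of all genes were called lower, it was short of 2-fold and not called.

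Among the slow-cycling libraries MUC5AC was highest in Violet, as MUC5B was. Its log2 ratio of Violet to eGFP was 1.40 (1.29 to 1.51), beside 1.502 for MUC5B, and it was called higher, as were 0.644% of all genes, with 0.288% called lower. Its ratio of Violet to Claret was 0.69 (0.60 to 0.78), against 1.53 for MUC5B, and was not called. MUC5AC was also 0.71 (0.59 to 0.83) higher in Claret than in eGFP, not called, while MUC5B differed there by -0.03. MUC5AC thus had the direction of MUC5B in Claret and eGFP against Bulk and in Violet against Claret and eGFP. In Violet against Bulk it had the opposite direction, and between Claret and eGFP MUC5B was not apart beyond counting error. These pairs share libraries, and the direction of MUC5B in Violet was fixed by its choice.

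The balance of both genes within a library needs no scaling between libraries. Of the reads of MUC5B and MUC5AC together, MUC5B made up 85.6% in Violet (95% exact Clopper-Pearson interval 85.1% to 86.1%) and 84.7% in eGFP (83.8% to 85.6%). It made up 76.8% in Claret (75.8% to 77.8%) and 58.7% in Bulk (57.7% to 59.6%). All 3 slow-cycling libraries were above Bulk, which for Violet includes the reads MUC5B was selected on. MUC5B had 1.42 reads per MUC5AC read in Bulk, 5.96 in Violet, 5.54 in eGFP and 3.32 in Claret. Relative to Bulk, Claret and eGFP had fewer reads of both genes at the same scale, and Violet had more of MUC5B and fewer of MUC5AC.

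**Figure D2:**
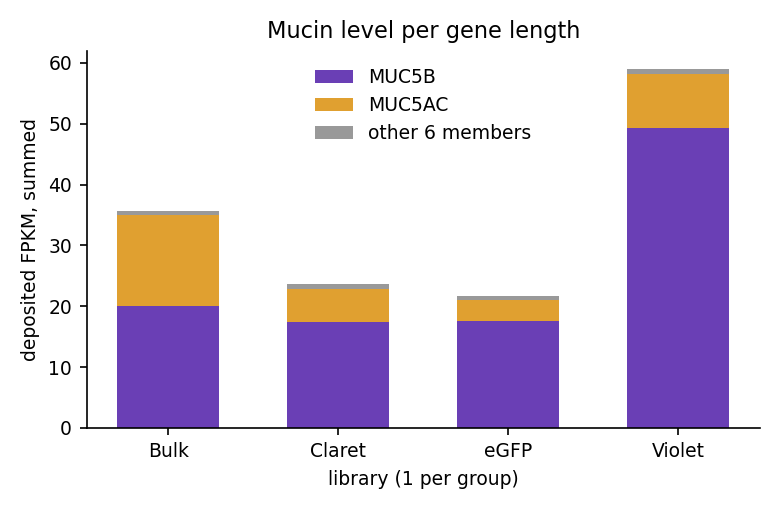
Deposited FPKM of MUC5B, MUC5AC and the other 6 mucin genes, stacked for each library on a linear axis from 0, with no error bars because each group has 1 library. The total is 59.0 in Violet, 35.7 in Bulk, 23.6 in Claret and 21.6 in eGFP, and the grey part of the other 6 genes stays under 1. The total in Violet includes MUC5B, which was chosen for its value there.

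Per gene length, MUC5B and MUC5AC made up nearly all of the summed level of the 8 genes. MUC5B was at 49.4 FPKM in Violet, 20.03 in Bulk, 17.6 in eGFP and 17.3 in Claret. MUC5AC was at 15.0 FPKM in Bulk, 8.84 in Violet, 5.57 in Claret and 3.39 in eGFP. The other 6 genes together reached 0.613 to 0.832 FPKM. The summed level of the 8 genes was 59.0 FPKM in Violet, 35.7 in Bulk, 23.6 in Claret and 21.6 in eGFP. Claret and eGFP thus lay below Bulk and Violet above it. That place of Violet comes from MUC5B, chosen for its value there, while MUC5AC was lower in Violet than in Bulk. MUC5B was 83.6% of that sum in Violet and 56.1% in Bulk. For scale, the median protein-coding gene among those tested was at 5.85 to 6.45 FPKM.

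The membrane-bound mucins were scarce. MUC1 (ENSG00000185499, chromosome 1, 155185824 to 155192916), a heavily studied epithelial surface mucin with a signalling cytoplasmic tail, had 56 reads in Violet, 48 in Claret, 46 in eGFP and 44 in Bulk. No neighbours in that order were apart beyond counting error. The log2 ratio of Violet was 0.33 to Bulk (95% exact interval -0.25 to 0.95), 0.31 to Claret (-0.26 to 0.91) and 0.28 to eGFP (-0.30 to 0.89). None was called. The upper bounds lie below the MUC5B ratios of 1.34, 1.53 and 1.502 for the same pairs. MUC5B was chosen for those ratios and the bounds cover counting error only, so this is no test of whether MUC1 follows MUC5B. A smaller change of MUC1 was not detectable at this depth.

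The remaining 5 genes did not reach a mean of 1 CPM and entered no comparison. MUC12 (ENSG00000205277, chromosome 7, 100969623 to 101018949), a transmembrane mucin of the colon, had 9 reads in eGFP, 6 in Violet, 4 in Claret and 2 in Bulk. Its neighbour MUC3A (ENSG00000169894, chromosome 7, 100949555 to 100968346), an intestinal transmembrane mucin, had 4 reads in Claret, 3 in eGFP and 1 each in Bulk and Violet. MUC20 (ENSG00000176945, chromosome 3, 195720882 to 195741123), which is reported to bind the MET receptor, had 4 reads in Claret, 2 in Violet, 1 in eGFP and 0 in Bulk. Its count is uncertain, since 60.1% of its 31-base words occur in other genes, chiefly in the overlapping transcript MUC20-OT1. MUC13 (ENSG00000173702, chromosome 3, 124905442 to 124953819), a transmembrane mucin of the gut, had 2 reads in Violet and 0 elsewhere. MUC16 (ENSG00000181143, chromosome 19, 8848844 to 8981342), the carrier of the CA125 epitope, had 0 reads in all 4 libraries. Together the 5 genes had 13 reads in eGFP, 12 in Claret, 11 in Violet and 3 in Bulk. No order between libraries can be read from such counts of single genes.

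Of the 3 genes that could be compared, 1 passed the call threshold upward in Violet against Bulk, beside 11.3% of all 14585 genes tested (18.3% in either direction). In Violet against Claret 1 passed, beside 0.562% of all genes (0.226% lower, 0.788% in either direction). In both pairs it was MUC5B, whose choice fixes this, so nothing is read from it. In Violet against eGFP MUC5AC passed besides MUC5B, where 0.932% of all genes did in either direction. In Claret against Bulk 0 were called higher, beside 11.2% of all genes, and 1, MUC5AC, lower, beside 6.67% (17.9% in either direction). In eGFP against Bulk 0 were called higher, beside 11.9%, and MUC5AC was again called lower, beside 7.6% (19.5% in either direction). Between Claret and eGFP 0 were called, beside 0.309% of all genes higher and 0.405% lower (0.713% in either direction). The median log2 ratio of the 3 genes in Violet was 0.33 to Bulk, 0.69 to Claret and 1.40 to eGFP, while the median over all genes tested was 0.00, -0.01 and -0.01. With 3 genes, each of these medians is the value of a single gene.

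**Figure D3:**
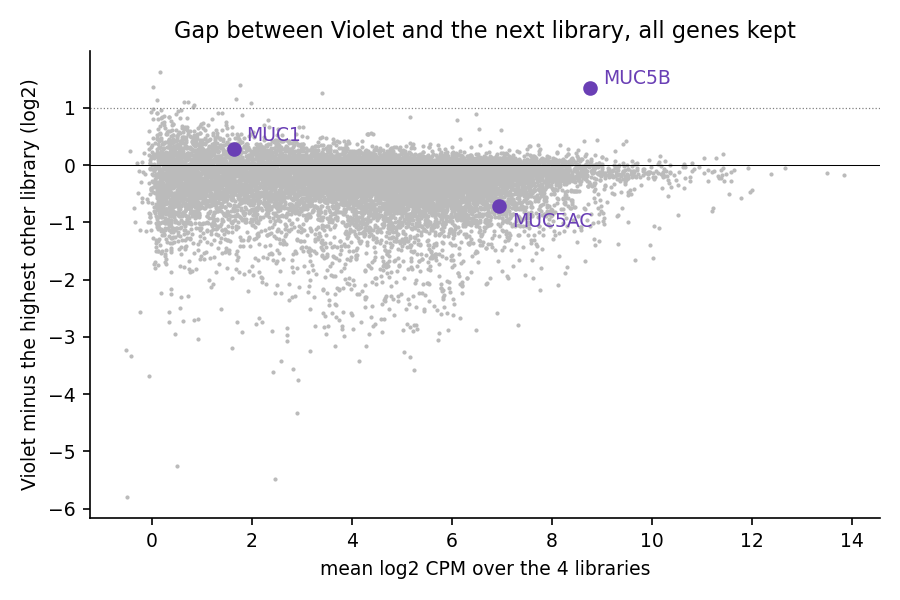
Log2 CPM in Violet minus that in the highest of the other 3 libraries, for the 14585 genes tested, against their mean log2 CPM, 1 point per gene with 3 mucin genes marked. MUC5B, chosen for its value in Violet, is at 1.34, above the dotted line at 1. From a mean of 100 CPM on, the remaining points lie at or below 0.61.

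The size of the MUC5B difference can be placed among all genes as a description. In 12 genes Violet was called higher than each of the other 3 libraries, of which 4 were protein coding, and MUC5B is among them by its choice. MUC5B had the most reads of these in Violet, and the next, the pseudogene AP001000.1 (named after its value was seen), had 327. By the gap between Violet and the next library MUC5B ranked 4 of the 12. CNTNAP3C (1.63, with 44 reads in Violet), RPL29P11 (1.39, 166) and AC072022.2 (1.37, 32), named for these gaps, had wider ones. Of the 2258 other genes with a mean of at least 100 CPM, the widest gap between Violet and the next library was 0.61, at CST4, a salivary cystatin named for this gap, against 1.34 at MUC5B. Of the 234 genes with a mean at least as high as that of MUC5B, 0 had a gap of 1 or more. These cutoffs leave out genes of lower level, and MUC5B was chosen for its value in Violet, so its place is not a test.

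The 5 protein-coding genes whose pattern over the 4 libraries was nearest to that of MUC5B were WFIKKN1, SLITRK6, CNTNAP3C, CEMIP and WFDC13. Likeness was the Euclidean distance between log2 CPM values centred on each gene's mean, and it was 0.293 for WFIKKN1 and 0.483 for WFDC13. WFIKKN1, a secreted protein with protease-inhibitor domains, had 45 reads in Violet and 18 to 20 elsewhere. CEMIP, which takes part in hyaluronan breakdown, had 913 reads in Violet and 486 to 508 elsewhere, and its log2 ratio of Violet to Bulk was 0.84. SLITRK6, a neuronal transmembrane protein, had 64 reads in Violet and 30 to 34 elsewhere. CNTNAP3C, a gene with near-identical copies whose count is therefore uncertain, had 44 and 10 to 13, and WFDC13 had 26 and 11 to 14. CEMIP was the only one of the 5 with more than 64 reads in any library. They lie on chromosomes 16, 13, 9, 15 and 20, none on that of MUC5B.

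The locus of MUC5B was examined because the gel-forming mucins MUC6, MUC2, MUC5AC and MUC5B form a cluster there. Of 51 other genes within 500 kb, 27 were expressed enough to be compared. In Violet against Claret 0 of the 27 were called, beside 0.788% of all genes in either direction. Log2 ratios of the 27 ran from -0.38 to 0.81. In Violet against eGFP MUC5AC was called and no other (1 of 27, beside 0.644% of all genes called higher), with ratios from -0.37 to 1.40. TOLLIP, which codes for an adaptor of Toll-like receptor signalling and lies 12.2 kb beyond MUC5B, had log2 ratios of Violet of -0.02 to Bulk, 0.01 to Claret and 0.04 to eGFP. MUC5AC ends 21.9 kb before MUC5B. Of the nearest genes tested on either side, TOLLIP was therefore level across libraries and MUC5AC was not. Against Bulk, DUSP8 (a phosphatase of MAP kinases, 2.56), IFITM10 (2.32) and the non-coding AC139749.1 (2.49) were called higher in Violet, and POLR2L, a subunit of RNA polymerases, was called lower (-1.03). These 3 of 27 higher and 1 of 27 lower stand beside 11.3% and 7.01% of all genes, so the count is no result about the locus. All 4 were called in the same direction in Claret and eGFP. DUSP8 had 229 reads in Claret, 210 in eGFP, 163 in Violet and 26 in Bulk.

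**Figure D4:**
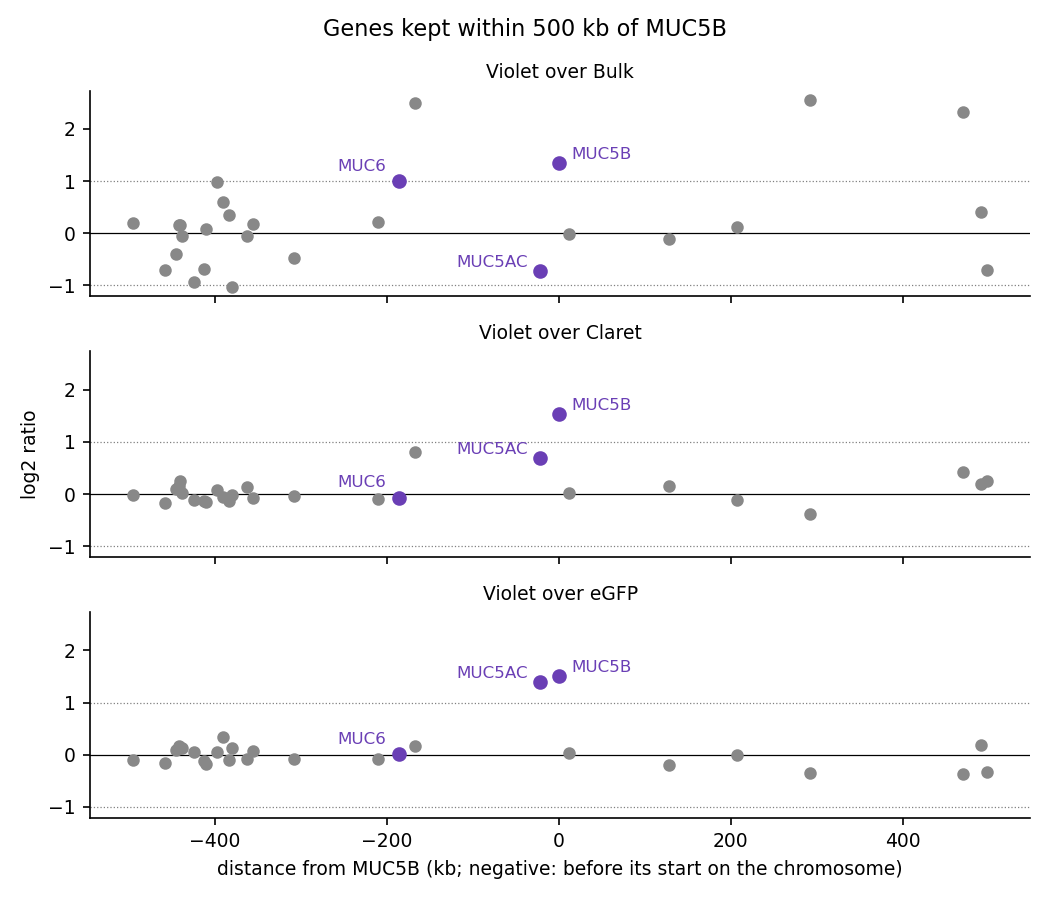
Log2 ratio of Violet to each other library for the genes tested within 500 kb of MUC5B, against their distance from it in kb, with mucin genes in purple and dotted lines at 2-fold. Against eGFP MUC5B (1.502) and MUC5AC (1.40) are above the upper line, and against Claret MUC5B alone is.

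Mucins outside the 8, with some related glycoproteins, were compared from a list of 15 (here other mucins), of which 5 were expressed enough. The 15 summed to 40.2 to 45.1 FPKM, most of it from CD164 and from MCAM, an adhesion molecule. Of the other genes tested, OVGP1 reached at most 4.41 FPKM, MUC15 3.03 and MUC6 0.615. Against Bulk 2 of the 5 were called higher in Claret (11.2% of all genes), 1 in eGFP (11.9%) and 1 in Violet (11.3%). MUC6, a gel-forming mucin of the stomach glands, had 88 reads in Claret, 78 in eGFP, 78 in Violet and 38 in Bulk. Its log2 ratio to Bulk was 1.07 in Claret (called), 0.99 in eGFP and 0.997 in Violet (both short of the threshold), and 0.01 between Violet and eGFP. MUC2, the gel-forming mucin of the intestine, had 4 to 8 reads. OVGP1, a secreted glycoprotein of the oviduct, had 13 reads in Bulk against 181 in eGFP, 171 in Claret and 134 in Violet, and was called higher in each, by log2 ratios of 3.60, 3.43 and 3.18. MUC15, a membrane-bound mucin, had 139 to 172 reads in the slow-cycling libraries against 87 in Bulk, not called. The sialomucin CD164 was at 19.98 to 22.9 FPKM and the adhesion molecule MCAM at 15.9 to 17.9, with log2 ratios of Violet to Bulk of 0.24 and -0.12. MUC4, a partner of ERBB2, had 6 reads in Bulk and 0 in Violet, and MUC7, MUC21, MUC22, MUCL1 and EMCN had 0 reads in every library. Of the 5 genes compared, 0 were called between Violet and Claret or eGFP, beside 0.788% and 0.932% of all genes. The median log2 ratios of the 5 there were 0.00 and -0.01. MUC20-OT1, the transcript that overlaps MUC20, had 83 to 113 reads and was not called in Violet against any library.

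Enzymes that attach and extend mucin-type O-glycans were compared next. The GALNT enzymes add the first sugar, and further enzymes build and sialylate the chain. Of 31 genes 22 were tested, and in Violet against Bulk 5 were called higher and 1 lower, with a median of -0.09, beside 11.3% and 7.01% of all genes and a median of 0.00. Higher were GALNT9 (3.06), GALNT12 (1.46), GALNT6 (1.00), the sialyltransferase ST6GALNAC3 (2.23) and B3GNT3 (1.11), which extends core chains. GALNT13 was lower (-1.15), with 166 reads in Bulk, 101 in eGFP, 100 in Claret and 74 in Violet. In Claret and in eGFP against Bulk 5 genes each were called higher too, beside 11.2% and 11.9% of all genes. GALNT6 had 653 reads in Claret, 603 in eGFP, 519 in Violet and 257 in Bulk. GALNT10 and GALNT2, highest by FPKM, were at -0.45 and -0.28 in Violet against Bulk, and ST3GAL1, which sialylates core chains, was at 0.71, none called. Between Violet and Claret or eGFP 0 of the 22 were called, beside 0.788% and 0.932% of all genes in either direction. With shares this low, 0 of 22 is no result about the list. The medians of the 22 there were 0.04 and 0.03.

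Of 21 regulators and co-secreted products of mucous cells 11 were tested. In Violet against Bulk 4 were called higher and 1 lower, with a median of 0.86, beside 11.3% and 7.01% of all genes and a median of 0.00. The median of the list against Bulk was 0.65 in Claret and 0.31 in eGFP. AGR2, a disulfide isomerase needed for mucin folding, had 847 reads in Claret, 828 in Violet, 753 in eGFP and 220 in Bulk. XBP1, a transcription factor of the unfolded-protein response, had 4648 reads in Claret, 3953 in eGFP, 3738 in Violet and 1700 in Bulk. Both were called higher in Claret, eGFP and Violet than in Bulk, and their ratios of Violet to eGFP were 0.14 and -0.07. FCGBP, a protein of mucus, was called higher than Bulk in eGFP (1.48) and Violet (1.57), and WFDC2, a secreted protein with protease-inhibitor-like domains, in Violet (1.02). WFDC2 had 59 reads in Violet, 53 in Claret, 45 in eGFP and 28 in Bulk, so that its call in Violet alone is a matter of the threshold. TFF1, a trefoil peptide secreted with MUC5AC in the stomach, had 10 to 16 reads in the slow-cycling libraries against 51 in Bulk, and was called lower in each. TFF3, the trefoil peptide secreted with MUC2 in the gut, had 142 reads in Violet, 98 in Claret, 73 in Bulk and 68 in eGFP. Its log2 ratio of Violet was 1.05 to eGFP (0.64 to 1.51), the 1 call of this list of 11 between Violet and another slow-cycling library (0.644% of all genes), 0.63 to Claret and 0.94 to Bulk. The transcription factors SPDEF and FOXA2 were at 7.62 to 10.3 and 36.6 to 42.4 FPKM and were not called, with ratios of Violet to Bulk of 0.12 and 0.18.

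The 3 remaining mucin-related lists held no call between Violet and another slow-cycling library. Over all genes, 0.788% were called against Claret and 0.932% against eGFP. Of 14 genes of mucin granule exocytosis 13 were tested. In Violet against any library 0 of the 13 were called, beside 18.3% of all genes against Bulk. The highest by FPKM were VAMP8, a vesicle membrane protein, MARCKS and UNC13D, with log2 ratios of Violet to Bulk of 0.04, -0.32 and -0.18. Of 21 signals and factors known to induce MUC5AC or MUC5B 20 were tested, and 4 were called higher than Bulk in Violet (11.3% of all genes), as in Claret (11.2%) and eGFP (11.9%). They were AREG and EREG, ligands of the EGF receptor, and the cytokines IL1A and IL1B. AREG had 966 reads in eGFP, 875 in Claret, 618 in Violet and 89 in Bulk. The highest by FPKM were FOSL1, JUN and HIF1A, transcription factors with ratios of Violet to Bulk of -0.46, 0.42 and 0.33, not called. Of 10 sheddases, ligands and partners of membrane mucins 9 were tested, and LGALS3 (galectin-3, a mucin-binding lectin, 1.21) and ERBB3 (a receptor of the EGF receptor family, 1.38) were called higher than Bulk in Violet, 2 of 9 beside 11.3% of all genes. LGALS1 and MMP14 were at 0.61 and 0.55, not called.

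**Figure D5:**
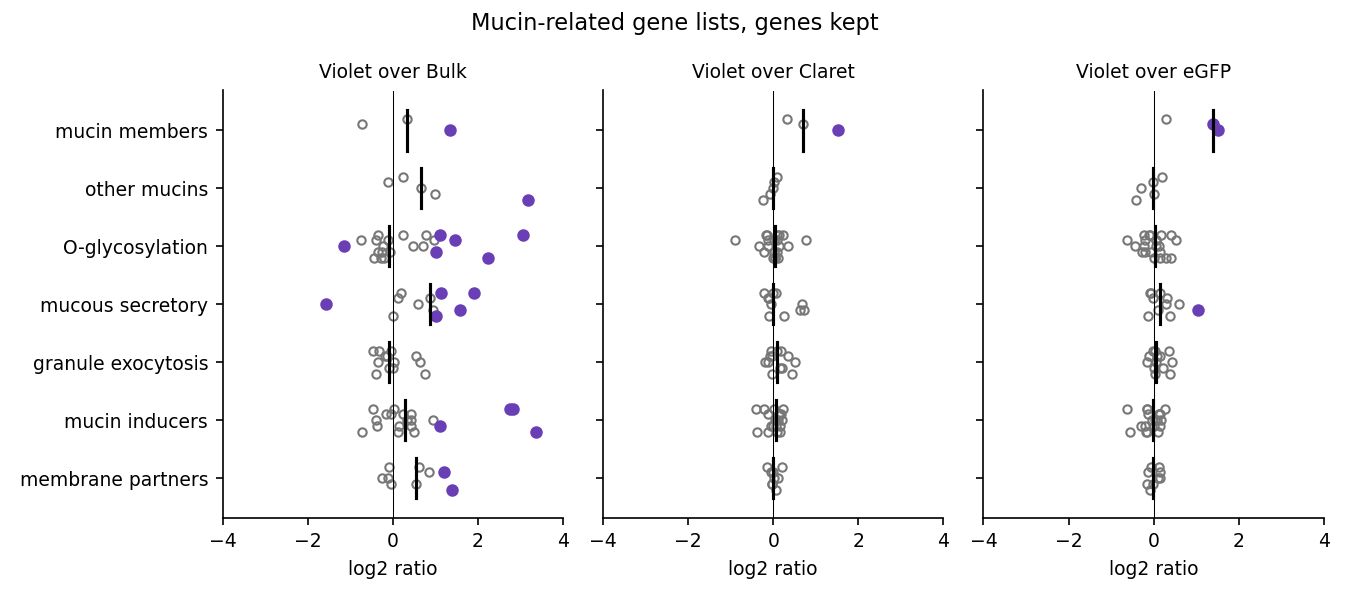
Log2 ratio of Violet to Bulk, Claret and eGFP for the tested genes of each mucin-related list, 1 circle per gene, filled where called, with a black bar at the list's median. Against Bulk most lists hold filled circles, while against Claret and eGFP the filled circles are MUC5B (by its choice), MUC5AC (eGFP) and TFF3 (eGFP). Over all genes tested 0.788% were called in Violet against Claret and 0.932% against eGFP.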

How the data were processed

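RNA of 4 sorted populations, 1 library each, was analysed. HISAT2 2.0.5 and featureCounts 1.5.0-p3 are named in the submitters' processing notes, and strand use, multi-mapping and build are not given in the sources used here. The deposited count table holds whole-number reads per gene, and the deposited FPKM table holds the authors' values per gene length and library total. Start and end of 58735 of 58735 genes equal GENCODE 29 on GRCh38. Libraries were scaled by TMM over all genes (edgeR 4.0.16, R 4.3.3). Genes with a mean of at least 1 CPM were tested (14585), with log2 CPM at a prior count of 2. Because 1 library per group leaves edgeR no residual degrees of freedom, reads of 2 libraries were compared by a two-sided exact binomial test with Benjamini-Hochberg adjustment over these genes (6 pairs). A call needed an adjusted p under 0.05 and a log2 ratio of at least 1 in size, and it compares libraries, not conditions. The procedure was tried on simulated data with counting error only, so that variation between replicate libraries was not covered. Intervals are 95% exact and cover counting error only.

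The members and lists were chosen with earlier results of these data known. Named were all members, other mucin genes with at least 10 reads, list genes called in Violet and the 3 highest by FPKM per list, the nearest neighbours and the 5 nearest patterns. Outside these rules, MUC2, MUC4, MUC7, MUC21, MUC22, MUCL1 and EMCN were named with fewer reads. DUSP8, IFITM10, AC139749.1 and POLR2L were named for their calls against Bulk. Others are stated as chosen later or belong to marker lists. Promoter sequences of MUC5B and MUC5AC were not used here. Alternatives were scaling (none, DESeq2 1.42.0), filters, prior count, log2(FPKM + 1), the treatment field and, added after seeing the data, a GC correction.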

Additional observations from a re-analysis of the deposited data

Results flagged for a closer look

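MUC5B differed from Bulk in opposite directions among the slow-cycling libraries. Its log2 ratio to Bulk was 1.34 in Violet, -0.19 in Claret (95% exact interval -0.24 to -0.13) and -0.16 in eGFP (-0.21 to -0.10), so that Violet stood above Bulk and both others below it. The ratios of Claret and eGFP were short of 2-fold and not called, and their intervals cover counting error only. The comparisons share the Bulk library, the gene was chosen for its value in Violet, and with 1 library per group the difference between these ratios was not tested. MUC5AC and MUC1 had no such opposite pair.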

How the results depend on the processing

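With the sample titles, 605 of 618 values under an alternative kept their call, or for counts stayed within 1.5 times, and 0 called ratios changed sign. Of 408 log2 ratios 11 changed sign, 4 of them of MUC1, and of these 0 were called in either setting. They were at most 0.0512 in size as reported and at most 0.156 under the alternative. MUC5B in Violet ranged from 1.18 to 1.40 against Bulk, from 1.46 to 1.57 against Claret and from 1.44 to 1.55 against eGFP. MUC5AC against Bulk ranged from -1.56 to -1.29 in Claret and from -2.27 to -1.87 in eGFP, and from 1.17 to 1.46 in Violet against eGFP. The counts of called genes among the 8 mucins were the same in every alternative that used the titles.

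A filter at 10 CPM, which tests fewer genes, left 0 other mucins, 3 O-glycosylation genes, 2 secretory genes and 0 neighbours of MUC5B higher in Violet than in Bulk, 0 O-glycosylation and 0 secretory genes lower, and 0 secretory genes higher than in eGFP. With no scaling factor 2 other mucins (MUC6 joined, at 1.05) and 5 neighbours were higher than Bulk and 0 neighbours lower. With DESeq2 size factors GALNT6 (0.96) and WFDC2 (0.98) fell short of the threshold in Violet against Bulk. The cause of the changes under these scalings was not tested. Shares of all genes called under the filter at 10 CPM and under these scalings are not given here, so nothing is read from the counts.

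Groups from the treatment field exchange the libraries themselves, so that Violet is then the library titled H2B-eGFP and Bulk the one titled Violet. Claret is then the library titled Bulk and eGFP the one titled Claret. MUC5B in Violet was then at -1.50 against Bulk, -0.16 against Claret and 0.0297 against eGFP. MUC5AC was then at 0.72 in Claret and -0.69 in eGFP against Bulk, and in Violet at -0.71 against eGFP and -2.12 against Claret. Of the 8 mucins, 0 were then higher in Violet than in Bulk, Claret or eGFP, 2 lower than in Bulk, 1 lower than in Claret, and 1 higher in Claret than in eGFP. Counts under these groups stand beside the shares of all genes called in either direction in the same library pairs. These were 0.932% for Violet against Bulk, 19.5% against Claret and 0.713% against eGFP. For Claret against eGFP the share was 17.9%. In Violet against Bulk 0 other mucins, O-glycosylation, secretory, inducer or partner genes and 0 neighbours were then higher, and 0 O-glycosylation genes lower. Against Claret 1 other mucin, 5 O-glycosylation, 3 secretory, 4 inducer and 2 partner genes and 3 neighbours were higher, and 1 secretory gene and 2 neighbours lower. Against eGFP 0 secretory genes and 0 neighbours were higher.

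No paired analysis was possible because each group has 1 library, and leaving out a library leaves its group empty. Depth limits the statements on the 5 mucins under 1 CPM and on MUC1, with 44 to 56 reads.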

Other observations

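B3GNT6, the enzyme that builds the core 3 O-glycan of gut mucins, had 12 reads in Violet, 1 in Bulk and 0 in Claret and eGFP. It was under the filter and was named after its values were seen. Because it was chosen for these reads, no interval is given for its ratio and nothing is read from its order. SLPI, an antiprotease of mucous secretions chosen in the same way, had 19 reads in Violet, 9 each in Claret and eGFP and 4 in Bulk. Other genes of the same lists under the filter were lowest in Violet. GCNT3 had 23 reads in Claret, 16 in Bulk, 12 in eGFP and 10 in Violet. CLCA2 had 5 in Claret, 3 in Bulk, 1 in eGFP and 0 in Violet.

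The protein-coding genes whose pattern over the 4 libraries was nearest to that of MUC5AC, named after its values were seen, were CENPS, METTL7A, POU3F2, SIGLEC10 and AKAP5, at Euclidean distances of 0.169 to 0.337. METTL7A had 124 reads in Bulk, 71 in Violet, 55 in Claret and 30 in eGFP. Like MUC5AC, these 5 genes were highest in Bulk, then in Violet, and lowest in eGFP, which follows from how they were picked. None of them had more than 124 reads in a library, against 4077 for MUC5AC in Bulk.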
